A study of Mus musculus with 2 samples.

Results

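The cytochrome P450 genes encode enzymes that hold a heme group and use oxygen to add hydroxyl or epoxide groups to their substrates. They were taken as all rows of the deposited expression table that are protein-coding in GENCODE mouse release M21 and whose symbol is Cyp followed by a family number, a subfamily letter and a gene number, which gave 94 of 55536 genes. Most families 1 to 3 enzymes act on drugs and other foreign compounds, family 4 on fatty acids and eicosanoids, and the higher-numbered families on sterols, steroid hormones, vitamin D and retinoic acid. Nearly all need electrons from a partner protein, which is cytochrome P450 reductase in the endoplasmic reticulum and ferredoxin in mitochondria. The liver is the main site of the foreign compound enzymes. Mammary tissue is best known for Cyp1b1, an estrogen and hydrocarbon hydroxylase, and fat cells are known to express Cyp2e1.

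RNA was sequenced from mammary tumors of MMTV-PyVT mice, in which the mammary tumor virus promoter drives polyoma middle T antigen in the mammary epithelium of both groups. One group was given dimethyl sulfoxide (DMSO), called vehicle here, and the other cyanidin-3-glucoside (C3G), a plant anthocyanin, from the onset of ductal hyperplasia until the tumors reached a set burden. Each group is 1 library, and the labels give no age, sex, dose or number of mice behind a library. No P450 value therefore has a replicate check, no test between the tumors was possible, and the treatment cannot be told apart from the individual tumor.

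The DMSO library held 12192275 gene-assigned reads and the C3G library 16081110, as recovered from the TPM values (a level scaled by gene length and by the library's total). The 6 luminal epithelial markers, among them Krt8 and Epcam, were all above 5 TPM in both tumors, with sums of 7451 TPM (DMSO) and 5404 TPM (C3G), which fits the tissue label. The 10 adipocyte markers summed to 266 TPM with vehicle and 1446 TPM with C3G, and the 6 endothelial markers to 23.5 and 68.1 TPM. Where values are given in pairs, the vehicle tumor comes first. Log2 ratios are log2((C3G TPM + 1)/(DMSO TPM + 1)), while ratios and folds are of plain TPM. Calls rest on size alone: a gene counts as higher or lower by size where it reaches 5 TPM in at least 1 tumor and its log2 ratio is 1 or more, or -1 or less. Each interval in parentheses is a 95% interval that covers counting error only, and PCR copies among the reads would make it too narrow.

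Most P450 genes gave few reads or none. No read was counted in either tumor for 45 of the 94 genes (47.9%), against 52.0% of all genes and 24.1% of protein-coding genes, and a further 23 had reads but stayed under 1 TPM in both. That left 26 genes at 1 TPM or more in at least 1 tumor and 16 at 5 TPM or more. The share at 1 TPM or more was 27.7%, against 33.7% of all genes and 61.5% of protein-coding genes. For the 45 genes without a read, the limit that a count of 0 allows (3 reads) lay between 0.148 and 0.458 TPM in the vehicle library and between 0.116 and 0.361 TPM in the C3G library. For 25 of these genes, over 10% of 50-base transcript windows also occur in transcripts of another gene. If reads that match several genes were dropped, which is not known, their limit would be higher. The genes with no read included Cyp7a1, which starts the classical route of bile acid synthesis, Cyp19a1, the aromatase that makes estrogens, Cyp1a2 and the adrenal enzymes Cyp11b1 and Cyp11b2.

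Most of the genes without a read belonged to a few large subfamilies. In the Cyp2c subfamily 13 of 15 genes had no read and the other 2 stayed under 1 TPM. In Cyp2j 6 of 8 had none, in Cyp3a 4 of 7, in Cyp2b 3 of 5 and in Cyp2a 3 of 4. The Cyp4a genes, fatty acid hydroxylases of liver and kidney, had 4 of 5 with a read but none at 1 TPM. The Cyp4f subfamily, in contrast, had 4 of its 9 genes at 5 TPM or more.

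**Figure D1:**
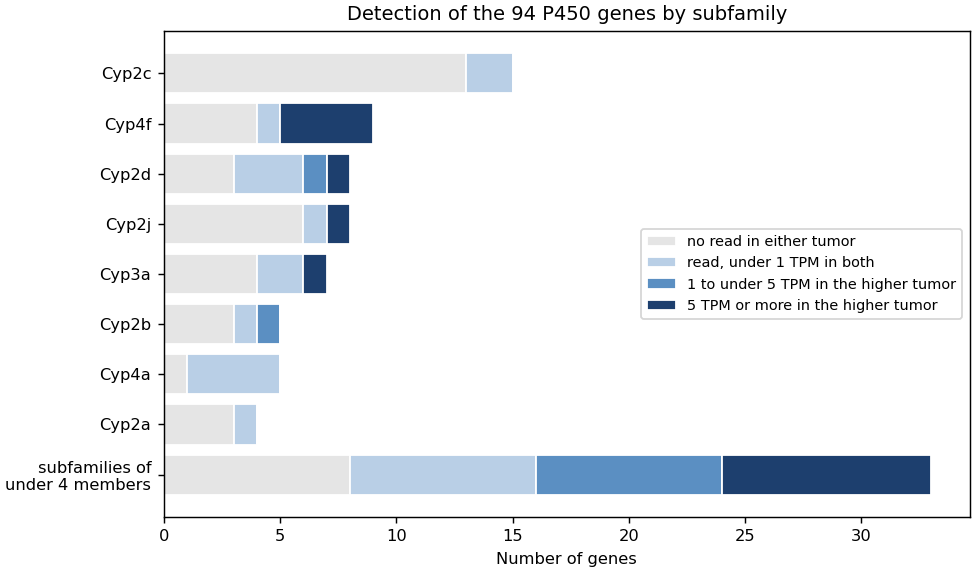
Number of P450 genes (horizontal axis) in each subfamily of at least 4 members and in all smaller subfamilies together, split by the level reached in the higher of the 2 tumors. Of 15 Cyp2c genes 13 had no read, while 4 of 9 Cyp4f genes reached 5 TPM.

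Within the genomic clusters, detected genes sat next to genes without a read. In the Cyp3a cluster on chromosome 5 (145345279 to 146113287, build mm10), 1 of 6 members reached 1 TPM, Cyp3a57 at the end with the lowest coordinates. In the Cyp2j cluster on chromosome 4 (96027534 to 96664154), only Cyp2j6 did, of 8 members. The cluster on chromosome 7 that runs from Cyp2s1 to Cyp2t4 (25802475 to 27158668) held 13 members, of which Cyp2s1, Cyp2b19, Cyp2f2 and Cyp2t4 reached 1 TPM. The Cyp4f cluster on chromosome 17 (32452723 to 32947402) had 3 of its 8 members at 5 TPM or more, and the Cyp2c cluster on chromosome 19 (39007019 to 40187333) had none of 14 at 1 TPM.

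Summed over all 94 genes, P450 transcripts made up 211 TPM in the vehicle tumor and 268 TPM in the C3G tumor. Without Cyp2e1 the sums were 209.8 and 237 TPM. The fatty acid and eicosanoid enzymes held the biggest share, with 45.8% of the sum in the vehicle tumor and 36.3% in the C3G tumor. The foreign compound enzymes summed to 43.1 and 65.8 TPM, or 20.4% and 24.5%, but to 42.1 and 34.7 TPM without Cyp2e1. Smaller shares were held by the cholesterol and bile acid enzymes, with 15.0% and 14.2%, and the vitamin D enzymes, with 1.93% and 5.99%. With vehicle the highest were Cyp4f17, Cyp20a1 and Cyp4f16. With C3G the order was Cyp20a1, Cyp2e1 and Cyp4f17, as Cyp2e1 stood at rank 24 among the 94 genes with vehicle and at rank 2 with C3G.

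**Figure D2:**
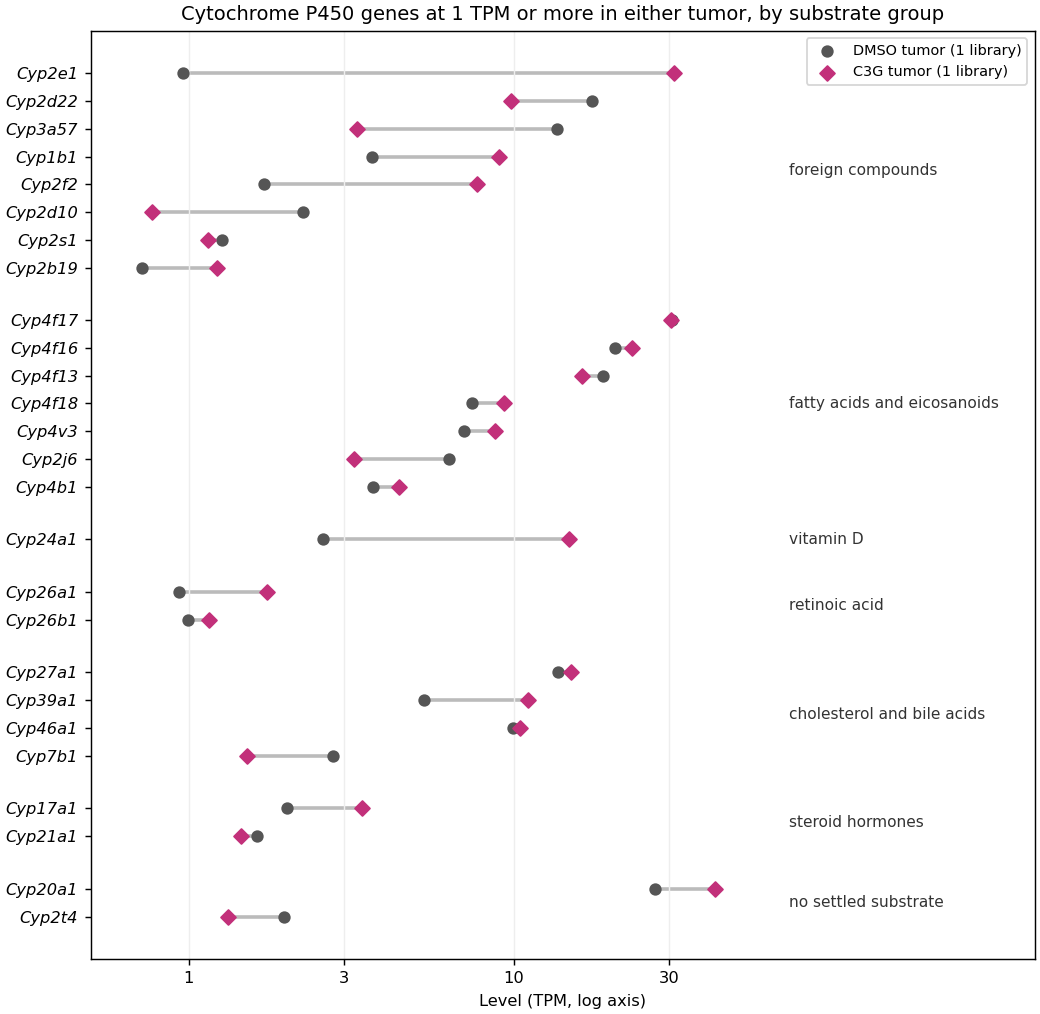
TPM of each P450 gene at 1 TPM or more in either tumor, on a log axis, with a grey circle for the DMSO library and a magenta diamond for the C3G library, grouped by known substrates. Cyp2e1 spans the widest distance, from 0.962 to 31.1 TPM, while the points of each Cyp4f gene lie close together.

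By size, 4 of the 16 genes at 5 TPM or more were higher in the C3G tumor and 1 was lower. Over all 12780 genes at that level, 3.10% were higher and 4.30% lower, 7.40% in either direction. Centring on genes with a mean of at least 10 TPM lowered every log2 ratio by 0.12, and 31.0% of all calls were then upward in place of 41.9%. Of the P450 genes 3 were then higher and 1 lower. Among the 11005 protein-coding genes, to which all P450 members belong, 1.80% were higher and 1.64% lower, 3.43% together. Among the 11909 genes with at least 50 reads as well, which include all 5 P450 genes called, 1.83% were higher and 2.62% lower, 4.45% together. The P450 genes called higher were Cyp2e1, Cyp24a1, Cyp2f2 and Cyp1b1, and the gene called lower was Cyp3a57. Each of these 5 reached 5 TPM in only 1 tumor. The filter takes the higher tumor, so genes could enter through the tumor where they were high, among P450 genes and all genes alike. Over the 16 genes the SD of the log2 ratio was 1.34 against 0.62 over all genes at 5 TPM or more. The SD of 1.34 includes Cyp2e1, whose log2 ratio was 4.03, against 2.13 for the next highest, Cyp24a1. The median was close to that of all genes, at 0.12 over 25 P450 genes with a mean of at least 1 TPM and 0.10 over all 17468 such genes. Of these 25 P450 genes 15 were above 0 and 10 below, and of all 17468 such genes 10288 were above 0 and 7180 below.

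**Figure D3:**
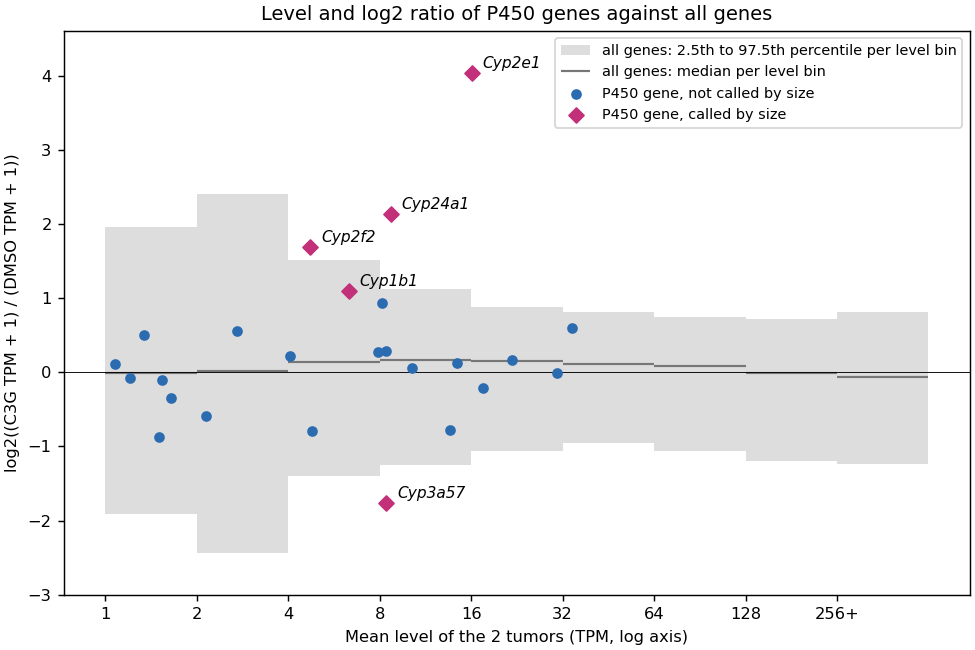
Mean TPM of the 2 tumors (log axis) against the log2 ratio for the 25 P450 genes with a mean of at least 1 TPM, over the range that holds the central 95% of all genes at each level (grey) and their median (line). Cyp2e1, Cyp24a1, Cyp2f2 and Cyp3a57 lie outside the grey range, while Cyp1b1 lies within it.

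The sequences around the start sites of 4 of the 5 genes called by size are shown because these are the genes the comparison turns on. RefSeq promoter windows on GRCm38.p6, the assembly of mm10, were matched by symbol for 73 of the 94 genes, and each runs from 250 bases before the start to 50 after it. Cyp24a1, the other gene called, is not shown because no window was matched to it. Capitals mark any of 4 short motifs searched on both strands, which do not overlap each other here. These were GCGTG, the core bound by the aryl hydrocarbon receptor, AGGTCA, a half-site of nuclear receptors, TATAAA, the TATA box, and CCAAT. Cyp2e1 is chr7:140763569-140763868 on the plus strand, Cyp1b1 is chr17:79715012-79715311 on the minus strand, Cyp2f2 is chr7:27119705-27120004 on the plus strand and Cyp3a57 is chr5:145345019-145345318 on the plus strand, all written 5′ to 3′ along the gene.
Cyp2e1: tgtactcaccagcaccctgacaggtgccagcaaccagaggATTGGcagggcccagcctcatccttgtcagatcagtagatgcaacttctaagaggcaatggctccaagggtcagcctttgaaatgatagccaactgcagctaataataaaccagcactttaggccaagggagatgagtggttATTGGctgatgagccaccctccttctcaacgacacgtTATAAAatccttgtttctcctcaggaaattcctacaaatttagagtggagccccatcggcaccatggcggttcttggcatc
Cyp1b1: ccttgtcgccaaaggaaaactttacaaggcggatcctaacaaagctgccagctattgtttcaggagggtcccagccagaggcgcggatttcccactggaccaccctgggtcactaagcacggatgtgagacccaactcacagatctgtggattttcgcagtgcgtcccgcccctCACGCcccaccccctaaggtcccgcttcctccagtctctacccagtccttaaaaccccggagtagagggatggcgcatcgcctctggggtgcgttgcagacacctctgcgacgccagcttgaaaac
Cyp2f2: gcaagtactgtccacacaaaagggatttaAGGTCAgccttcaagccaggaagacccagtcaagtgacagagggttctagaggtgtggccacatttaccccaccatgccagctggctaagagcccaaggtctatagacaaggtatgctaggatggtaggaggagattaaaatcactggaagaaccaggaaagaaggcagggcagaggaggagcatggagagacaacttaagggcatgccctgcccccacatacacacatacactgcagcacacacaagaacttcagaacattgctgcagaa
Cyp3a57: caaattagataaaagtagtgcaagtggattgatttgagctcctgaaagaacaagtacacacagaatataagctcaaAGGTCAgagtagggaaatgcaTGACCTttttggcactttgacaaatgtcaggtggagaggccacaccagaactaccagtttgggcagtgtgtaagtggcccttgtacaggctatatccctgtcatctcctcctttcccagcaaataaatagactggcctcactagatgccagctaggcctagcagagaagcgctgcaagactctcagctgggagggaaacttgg

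The Cyp1b1 window holds 1 match of GCGTG, on the reverse strand, 76 bases before the start. The Cyp2e1 window holds a TATAAA 31 bases before the start and 2 matches of CCAAT on the reverse strand. Cyp2f2 has 1 match of AGGTCA and Cyp3a57 has 2, on opposite strands. Over 32817 windows, 32.4% held GCGTG, 16.3% AGGTCA, 13.6% TATAAA and 37.4% CCAAT, so these short matches are common. Among the 73 P450 genes the shares were 21.9%, 28.8%, 42.5% and 47.9%. Of the 12 matched genes at 5 TPM or more, 5 held GCGTG, 2 AGGTCA, 1 TATAAA and 7 CCAAT. The windows of Cyp2e1, Cyp2f2 and Cyp3a57 hold 4, 0 and 1 CG pairs, that of Cyp1b1 16, and the median over all windows was 7.

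Cyp2e1, which oxidises ethanol, acetone and other small molecules, lies on chromosome 7 (140763739 to 140774987, plus strand). It had 9 reads in the vehicle tumor (0.962 TPM) and 369 in the C3G tumor (31.1 TPM), a ratio of 32.3 (16.9 to 71.3). Among the 11909 genes with at least 5 TPM in 1 tumor and at least 50 reads in all, it had the highest log2 ratio. Of the adipocyte markers 10 of 10 were above 0 and 8 were higher by size, such as the hormone gene Adipoq with 12.9 and 64.8 TPM, and the hormone gene Retn with 4.97 and 49.3 TPM. None of the 10 was at 0 in either tumor, and their ratios ran from 1.08 (Cidea) to 9.93 (Retn). Endothelial markers were higher as well, 5 of 6 by size. The part of these cell types in the Cyp2e1 difference was not tested, and more cells of a type cannot be told apart from more RNA per cell in bulk tumors. Hepatocyte markers were low. Alb had no read with vehicle and 1 with C3G, Ttr had none in either, and the 9 markers in the table summed to 3.85 and 5.14 TPM.

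Cyp1b1 (chromosome 17, 79701537 to 79715061, minus strand), an enzyme induced through the aryl hydrocarbon receptor that hydroxylates estradiol and polycyclic hydrocarbons, stood at 3.67 TPM with vehicle (93 reads) and 8.97 TPM with C3G (288 reads). Its ratio was 2.44 (1.93 to 3.12). Among other known targets of that receptor, Cyp1a1 had no read with vehicle and 1 with C3G, Cyp1a2 had none, and Nqo1, a quinone reductase, stood at 160 and 169 TPM, with a ratio of 1.06 (0.976 to 1.14). Tiparp, a target that damps the receptor, stood at 10.2 and 16.3 TPM, with a ratio of 1.59 (1.34 to 1.90). The call on Cyp1b1 was lost when log2 ratios were centred (log2 ratio 0.97) or the trend with gene length was removed (0.90). Cyp1b1 is known from vascular and stromal cells. The 6 endothelial markers summed to 23.5 and 68.1 TPM, and the 6 fibroblast markers to 1503 and 1231 TPM. The 6 pericyte and smooth muscle markers summed to 862 and 425 TPM, with 2 lower by size. The part of these cell types in the Cyp1b1 difference was not tested.

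Cyp24a1 (chromosome 2, 170482708 to 170497145, minus strand), which starts the breakdown of active vitamin D, had 40 reads with vehicle (2.59 TPM) and 289 with C3G (14.8 TPM). Its ratio was 5.70 (4.09 to 8.15), the highest after Cyp2e1 among the 16 genes. The vitamin D receptor gene Vdr, through which Cyp24a1 is known to be induced, stood at 56.9 and 62.5 TPM, a ratio of 1.10 (1.02 to 1.18). Cyp27b1, which makes active vitamin D, stood at 0.717 and 0.848 TPM and Cyp2r1, which acts a step earlier, at 0.763 and 0.430 TPM. Both intervals of these enzymes include a ratio of 1 (0.445 to 3.34 for Cyp27b1 and 0.141 to 2.06 for Cyp2r1), so a difference was not detectable at this depth. Of the Cyp24a1 exons, 2.33% overlap the gene Pfdn4 on the other strand, which stood at 24.3 and 31.7 TPM, and the libraries do not mark strand.

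Cyp2f2 (chromosome 7, 27119909 to 27133660, plus strand), known for activating naphthalene in the club cells of the lung, had 15 reads with vehicle (1.71 TPM) and 86 with C3G (7.73 TPM), a ratio of 4.52 (2.60 to 8.43). An antisense gene, Gm15883, overlaps 13.5% of its exons and was listed at 0 and 0.108 TPM. The club cell secretory gene Scgb1a1 had 1 read with vehicle and none with C3G. Of the adipocyte markers 8 of 10 were higher by size and of the endothelial markers 5 of 6, with none lower in either list. The T cell list and the pericyte and smooth muscle list each had 2 of 6 lower by size and none higher. The part of any cell type in the Cyp2f2 difference was not tested. The nearest member in the cluster, Cyp2t4, stood at 1.96 and 1.32 TPM, and Cyp2s1 at the far end at 1.26 and 1.14 TPM.

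Cyp3a57 (chromosome 5, 145345279 to 145390926, plus strand) belongs to the subfamily of broad drug and steroid hydroxylases. It had 117 reads with vehicle (13.5 TPM) and 36 with C3G (3.29 TPM), 4.12-fold lower (2.81 to 6.16). It held most of the Cyp3a signal in both tumors. The others with reads were Cyp3a13 at 0.234 and 0.308 TPM and Cyp3a11 with no read and 3 reads. Of the Cyp3a57 transcript sequence, 8.63% of 50-base windows also occur in transcripts of another gene, chiefly Cyp3a59, which had no read. The pregnane receptor gene Nr1i2, a known regulator of this subfamily, stood at 0.723 and 1.78 TPM, and the related receptor gene Nr1i3 had no read and 1 read. The 6 T cell markers, 2 of them lower by size and 6 of 6 below 0, summed to 28.9 and 8.67 TPM, and the 6 pericyte and smooth muscle markers, 2 of them lower by size and 3 of 6 below 0, to 862 and 425 TPM. In that list the contractile genes Acta2 (712 and 318 TPM) and Myh11 (92.9 and 38.7 TPM) were lower, while Rgs5 had a ratio of 1.53 (1.34 to 1.75). Of the 6 luminal epithelial markers 1 was lower by size (Krt19, 678 and 246 TPM) and 5 were below 0, with sums of 7451 and 5404 TPM. The adipocyte and endothelial lists went the other way, with sums of 266 and 1446 TPM and of 23.5 and 68.1 TPM. No marker of these lists was at 0 in either tumor. The part of these cell types in the Cyp3a57 difference was not tested.

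**Figure D4:**
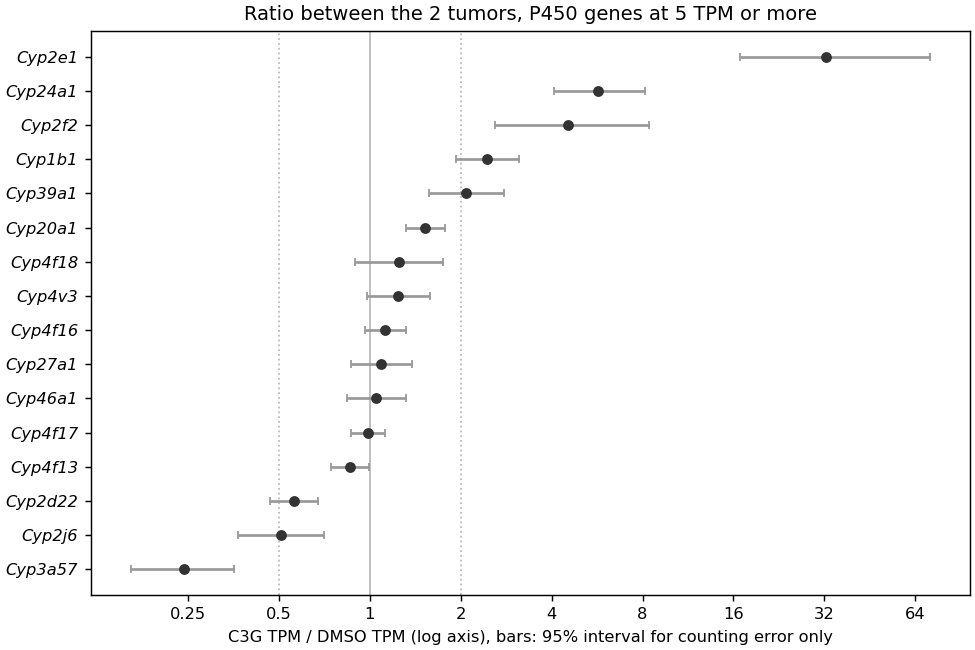
Ratio of C3G TPM to DMSO TPM (log axis) for the 16 P450 genes at 5 TPM or more in either tumor, with bars for the 95% interval of counting error and dotted lines at ratios of 0.5 and 2. Cyp2e1, at 32.3, stands apart from the rest, and Cyp39a1 is past a ratio of 2 but not past the size threshold, which adds 1 TPM to both values.

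The remaining foreign compound enzymes were low, or lower in the C3G tumor by less than the threshold. Cyp2d22, a drug hydroxylase, stood at 17.4 TPM with vehicle (295 reads) and 9.78 TPM with C3G (210 reads), 1.78-fold lower (1.49 to 2.14), which fell short of the size threshold. Cyp2d10, in the same cluster, stood at 2.24 and 0.773 TPM on 16 and 7 reads. Its reads are uncertain, since 35.8% of Cyp2d10 windows occur in other transcripts, chiefly Cyp2d11, against 4.13% of Cyp2d22 windows. Cyp2s1, an epithelial enzyme, and Cyp2b19, known from skin keratinocytes, were low in both tumors, at 1.26 and 1.14 TPM and at 0.719 and 1.22 TPM.

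The fatty acid and eicosanoid enzymes summed to 96.5 and 97.1 TPM, and none of the 6 at 5 TPM or more was called by size. The Cyp4f genes hydroxylate long-chain fatty acids and leukotrienes. Cyp4f17 stood at 30.7 TPM with vehicle and 30.4 TPM with C3G, a ratio of 0.989 (0.869 to 1.13). Cyp4f16 stood at 20.5 and 23.1 TPM, Cyp4f13 at 18.9 and 16.2 TPM and Cyp4f18, known for acting on leukotriene B4 in myeloid cells, at 7.46 and 9.32 TPM. These 4 genes went both ways, by small amounts. Cyp4f16 shares 17.4% of its windows with other transcripts, chiefly Cyp4f37, and its reads are uncertain to that extent. Cyp4f18 exons overlap the gene Zfp961 on the other strand over 9.76% of their length.

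Cyp4v3, a fatty acid hydroxylase, stood at 7.03 and 8.75 TPM, a ratio of 1.24 (0.981 to 1.58). Cyp4b1, which acts on fatty acids and plant toxins, stood at 3.68 and 4.44 TPM. Cyp2j6, of a subfamily that makes epoxides of arachidonic acid, had an interval below 1, as did Cyp4f13. Cyp2j6 stood at 6.33 TPM with vehicle (99 reads) and 3.23 TPM with C3G (64 reads), 1.96-fold lower (1.42 to 2.73), and was not called by size. Cyp4f13 was 1.16-fold lower (1.01 to 1.35).

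Among the cholesterol and bile acid enzymes only Cyp39a1, which hydroxylates oxysterols, differed by about the size threshold. It stood at 5.29 TPM with vehicle (70 reads) and 11.03 TPM with C3G (185 reads), a ratio of 2.09 (1.58 to 2.79) and a log2 ratio of 0.94, just under the threshold. It was called higher with a pseudocount of 0.1. Cyp27a1, the mitochondrial sterol hydroxylase, stood at 13.7 and 15.0 TPM, a ratio of 1.09 (0.868 to 1.38). Cyp46a1, best known for clearing cholesterol from brain, stood at 9.96 and 10.5 TPM, a ratio of 1.05 (0.840 to 1.31), and its direction changed after centring. Cyp7b1, another oxysterol hydroxylase, stood at 2.77 and 1.51 TPM on 26 and 18 reads. The genes for the first and the branching step of bile acid synthesis, Cyp7a1 and Cyp8b1, had no read.

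Enzymes of steroid hormones and retinoic acid were low in both tumors. Cyp17a1, which makes androgen precursors, stood at 2.00 TPM with vehicle and 3.42 TPM with C3G on 24 and 52 reads, a ratio of 1.71 (1.04 to 2.90). Cyp21a1, an adrenal hydroxylase, stood at 1.62 and 1.45 TPM, but 23.8% of its windows occur in other transcripts, chiefly the pseudogene Cyp21a2-ps, listed at 1.00 and 0.658 TPM. Cyp11a1, which cuts the cholesterol side chain, had 2 and 3 reads. The retinoic acid hydroxylases Cyp26a1 and Cyp26b1 stood at 0.931 and 1.74 TPM and at 0.991 and 1.16 TPM, and Cyp26c1 had 2 reads with vehicle and none with C3G. The intervals for Cyp26a1 (0.783 to 4.95) and Cyp26b1 (0.667 to 2.07) include 1.

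Cyp20a1, whose substrate is not settled, had the highest mean level of the 94 P450 genes taken here, which leave out Cyp51. It stood at 27.1 TPM with vehicle (269 reads) and 41.6 TPM with C3G (522 reads), a ratio of 1.53 (1.32 to 1.78), not called by size. Of the 16 genes at 5 TPM or more, 6 had a counting interval that includes 1. Of the same 16, 7 had a log2 ratio within 1.5-fold, against 79.4% of all genes at that level.

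The partner proteins of P450 enzymes were transcribed in both tumors without a call by size. Of 10 redox partner genes all had a mean of at least 1 TPM, 7 were above 0 and 3 below, none was called by size and the median log2 ratio was 0.25. For these and the lists that follow, 10288 of all 17468 genes with such a mean were above 0, with a median of 0.10. Por, the reductase that feeds nearly all P450 enzymes of the endoplasmic reticulum, stood at 19.1 and 26.1 TPM, a ratio of 1.36 (1.19 to 1.57). Fdxr, which feeds the mitochondrial enzymes such as Cyp24a1 and Cyp27a1, stood at 18.5 and 25.1 TPM. The heme-binding adaptor Pgrmc1 stood at 268 and 319 TPM and the cytochrome b5 reductase gene Cyb5r1 at 30.6 and 39.3 TPM. Of 13 genes of heme synthesis and breakdown, 9 were above 0, none was called and the median was 0.17. Alas2, the red cell form of the first enzyme, stood at 2.78 and 5.30 TPM, Cpox at 11.6 and 18.9 TPM, Ppox at 24.8 and 33.9 TPM and Blvra at 25.2 and 32.5 TPM.

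The aryl hydrocarbon receptor list had 8 of 9 measured genes above 0, of 12 listed, with a median of 0.45 and none called by size. The receptor gene Ahr stood at 38.7 and 53.4 TPM and its partner Arnt at 22.8 and 33.8 TPM. Nfe2l2, a regulator of oxidative stress genes, stood at 52.2 and 73.3 TPM. The repressor gene Ahrr had 4 and 5 reads and the target Aldh3a1 1 and 2. Of 21 nuclear receptor genes 14 were measured, 12 of them above 0, with a median of 0.14. Pparg, the receptor that drives fat cell formation, was the one called, at 2.499 and 6.66 TPM, a ratio of 2.66 (1.78 to 4.08), beside the higher adipocyte markers. Rara stood at 33.8 and 19.7 TPM, Nr3c1 at 42.4 and 61.8 TPM and Rxrb at 26.8 and 34.9 TPM, while Hnf4a, a regulator of liver P450 genes, had no read.

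Retinoid handling genes had 4 of 10 measured members above 0, of 13 listed, and a median of -0.13. Rbp4, the retinol carrier made by liver and fat, was called higher, with 6 and 73 reads (1.03 and 9.89 TPM), a ratio of 9.60 (4.20 to 27.01). Aldh1a3 stood at 24.2 and 16.2 TPM and Rdh11 at 24.6 and 33.9 TPM. Eicosanoid enzymes had 6 of 12 measured genes above 0, of 15 listed, a median of 0.05 and none called. Pla2g4a, which releases arachidonic acid, stood at 27.6 and 14.6 TPM, Alox15 at 6.58 and 3.41 TPM, Hpgd at 18.5 and 27.5 TPM and the epoxide hydrolase gene Ephx1 at 161 and 115 TPM. Steroid synthesis genes had 5 of 8 measured members above 0, of 14 listed, a median of 0.38 and none called. Hsd17b12 stood at 66.4 and 117 TPM, Star at 3.53 and 5.53 TPM, Hsd17b7 at 3.98 and 6.13 TPM and Srd5a1 at 13.8 and 19.3 TPM.

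**Figure D5:**
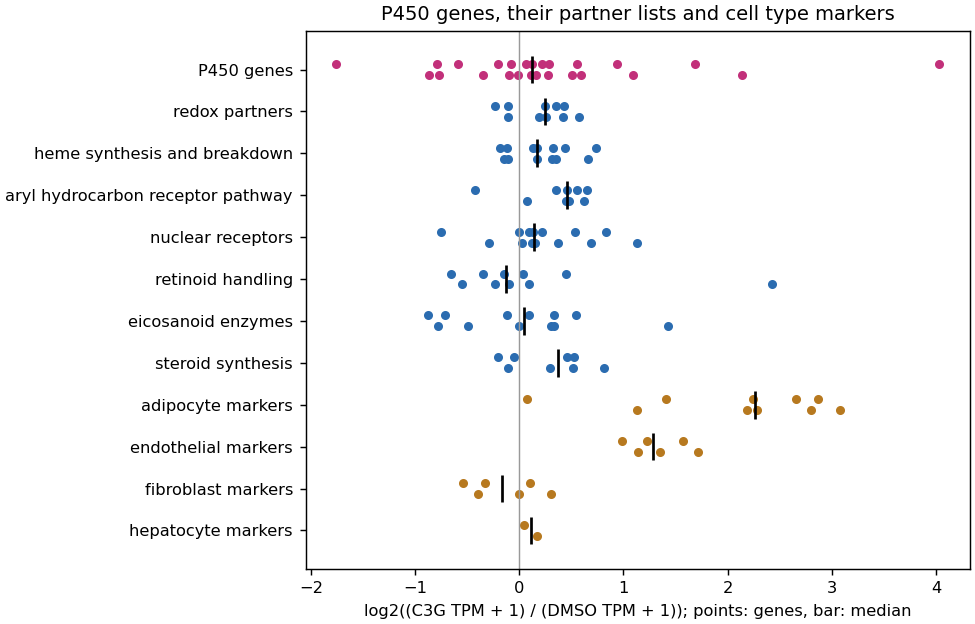
Log2 ratio of each gene with a mean of at least 1 TPM (points) and the median (bar) for P450 genes, their partner and pathway lists, and cell type markers. The P450 points reach from -1.76 to 4.03 around a median of 0.12, while the adipocyte and endothelial medians are 2.27 and 1.29.

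Enzymes of the same fold that the symbol rule leaves out were not called by size. Cyp51, which removes a methyl group from lanosterol in cholesterol synthesis, stood at 39.3 TPM with vehicle and 32.6 TPM with C3G, a ratio of 0.831 (0.751 to 0.919). Tbxas1, the thromboxane synthase, stood at 1.98 and 0.921 TPM and Ptgis, the prostacyclin synthase, at 2.16 and 2.41 TPM. The other 5 protein-coding Cyp genes outside the rule, with a letter after the gene number such as Cyp3a41a, had no read.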

How the data were processed

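The data are RNA sequencing values of 2 mammary tumor libraries, 1 per group. RNeasy Plus kits and the TruSeq RNA kit v2, a kit that does not mark strand, were used per the labels. Per the submitters' processing notes, FastQC, MultiQC, Trimmomatic 0.38 and featureCounts 2.0.0 were used with build mm10. The aligner and the treatment of reads that match several genes are not given in the sources used here. The values the authors deposited are TPM, and each column sums to 1000000.

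All 55536 gene identifiers matched GENCODE M21. Multiplied by exon-union length, 100% of TPM values above 0 came out as multiples of 1 step, within 0.01 of a step, and 1 step was taken as 1 read. Ratio intervals are exact conditional binomial intervals from these reads. With 1 library per group no p-value was computed and no count test was run. The pseudocount was 1 TPM. Lists were summarised over genes with a mean of at least 1 TPM. Members at 1 TPM or more in either tumor were named, as were up to 4 genes per list with the biggest log2 ratio in size among those at 5 TPM or more. Some genes that this rule names are not reported here. Further genes named beside a result (such as Cyp7a1, Cyp19a1, Nqo1, Nr1i2 and Scgb1a1) were chosen after their values were seen, as were the lung and vitamin D lists and the promoter motifs. Members and lists were chosen with earlier results of these data known. Shared sequence was counted as 50-base windows of GENCODE transcripts found in another gene's transcripts. Alternatives were a pseudocount of 0.1 or 5, no filter or a stricter one, centring, rescaling, removal of the length trend and at least 50 reads. The foreign compound sum without Cyp2e1 and the median without called genes were added after seeing the data. Read recovery, the intervals and the call rule were tested on simulated data with counting error only. Those data held no spread between tumors, so they cannot show whether a call would recur in other tumors. Python 3.11.15, pandas 2.3.3 and scipy 1.17.1 were used.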

Additional observations from a re-analysis of the deposited data

How the results depend on the processing

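Of the 5 P450 calls, Cyp2e1 held under every alternative run, and Cyp24a1 and Cyp3a57 under all but the stricter filter, which keeps only genes at 20 TPM or more. That filter left 4 P450 genes, of which 1 was higher (Cyp2e1) and 0 were lower. With a pseudocount of 5, 2 were higher (Cyp2e1 and Cyp24a1), and with a pseudocount of 0.1 the number was 5, with Cyp39a1 added. Cyp1b1 was no longer called after centring or removal of the length trend, which left 3 higher. Requiring 50 reads or rescaling without the most abundant genes left the counts at 4 and 1. The P450 median lay between 0.00 (centred) and 0.22 (over the 14 genes with a mean of at least 5 TPM). With no filter it was 0 over all 94 genes, but 45 of these had no read and so a log2 ratio of 0 by construction. Over all genes, 179 were higher and 309 lower with a pseudocount of 5, 1086 and 1218 with no filter, and 109 and 241 with the stricter filter, against 396 and 550. Of 130 recomputed log2 ratios of named P450 genes, 126 moved by less than their counting interval, and the other 4 were those of Cyp2e1, Cyp24a1, Cyp3a57 and Cyp1b1 with a pseudocount of 5. Only Cyp46a1 and Cyp26b1 changed sign, both near 0. No paired analysis was possible because each group has 1 library. Depth limits the genes under 1 TPM, which rest on at most 16 (vehicle) and 18 reads (C3G).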

Other observations

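Markers of tissues with P450 expression of their own were mostly under 1 TPM in both tumors. Of 6 skin keratinocyte genes Krt10 was the one above 1 TPM (8.29 with vehicle and 5.25 with C3G). Lor had no read with vehicle and 8 with C3G, Krt1 had 1 and 8, and Flg and Krtdap had none in either. Of 4 intestinal genes Cdx2 and Apoa4 had no read, and Vil1 stood at 1.10 and 1.79 TPM. The adrenal and gonadal regulator Nr5a1 had no read, although its target Star stood at 3.53 and 5.53 TPM.

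Of 6 genes of lung epithelium, listed after the data were seen, Scgb3a2, Sftpa1 and Sftpb had no read in either tumor. The surfactant gene Sftpc had 21 reads with vehicle and 4 with C3G. Foxj1, a regulator of ciliated cells, stood at 13.2 and 3.75 TPM, 3.52-fold lower with C3G (2.56 to 4.90). The part of lung epithelium in the Cyp2f2 difference was not tested. Of 8 genes of vitamin D transport and response, listed after the data were seen, 3 were measured beside 3 with no read. Trpv6, a calcium channel gene that active vitamin D is known to induce, stood at 1.52 and 0.694 TPM (26 and 15 reads), and the calcium-binding gene S100g at 7.21 and 4.55 TPM (15 and 12 reads). The interval of the ratio was 0.224 to 0.892 for Trpv6 and 0.270 to 1.44, which includes 1, for S100g, and neither was called by size.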
